A study of Mus musculus with 8 samples.

Results

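The receptors of the common gamma chain cytokines and of interleukin 6 were examined in naive CD8 T cells, which have not yet met antigen and can become cytotoxic T cells. Their 9 genes (Il2rg, Il2rb, Il7r, Il4ra, Il21r, Il2ra, Il15ra, Il6st and Il6ra) were taken by symbol from a table of 22609 genes, and all 9 were found. The cells came from spleens of C57BL/6 mice, 3 months of age, with 4 libraries of the genotype labelled Het and 4 of wild type (WT). The series title gives the gene as Brca1, which acts in the repair of DNA double strand breaks. The labels give neither the making of the allele nor whether libraries came from separate animals, and p-values and intervals therefore describe variation among these 8 libraries. Libraries are named by genotype and title number: Het 31, 53, 56 and 139, and WT 45, 54, 57 and 65.

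Gamma chain cytokines are received by a ligand-specific chain paired with the shared gamma chain, which carries the kinase JAK3, and several of them act mainly through STAT5. In naive CD8 T cells, interleukin 7 signalling through Il7r sustains survival, while the beta chain Il2rb is used for interleukin 15 and interleukin 2 and is most abundant on memory cells and NK cells. Interleukin 6 binds Il6ra, and the complex recruits the shared signalling chain gp130, encoded by Il6st, which acts mainly through STAT3.

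No difference between Het and WT cells was detected in any of the 9 receptor genes. By limma on log2(normalized read count + 1), with Benjamini-Hochberg adjustment over 12048 tested genes, 0 of the 9 passed at 0.05, against 0.515% of all tested genes. The genes that passed numbered 62, and all of them were lower in Het. At an unadjusted p under 0.05 the count was also 0 of 9, against 8.19% of tested genes (3.79% higher and 4.40% lower in Het). The libraries of the genotypes overlapped in all 9 genes, whereas every Het library was above every WT library in 2.13% of tested genes and below in 2.86%. Of the 9, 6 were higher and 3 lower in Het, with a median log2 difference of 0.01, and over all tested genes 52.0% were higher, with a median of 0.01. All 9 had passed the filter on low values, a mean of 10 or more across libraries.

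The promoters of the shared chains of both families and of the most variable member are shown, since gp130 and the gamma chain serve several receptors each and Il2ra varied most between libraries. Each line is the 250 bases before the transcription start, on the strand of the gene, from RefSeq on GRCm38.p6. Capitals mark CCGGAA, the core of an ETS factor site, in Il2rg and Il6st, and the NF-kB consensus in Il2ra, on either strand.
Il2rg, chrX:101268256-101268505, minus strand: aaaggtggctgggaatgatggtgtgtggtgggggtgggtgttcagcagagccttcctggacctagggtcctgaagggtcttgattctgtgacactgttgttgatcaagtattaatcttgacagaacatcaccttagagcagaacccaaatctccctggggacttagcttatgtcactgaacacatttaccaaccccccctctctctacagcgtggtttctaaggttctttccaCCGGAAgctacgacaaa
Il6st, chr13:112463820-112464069, plus strand: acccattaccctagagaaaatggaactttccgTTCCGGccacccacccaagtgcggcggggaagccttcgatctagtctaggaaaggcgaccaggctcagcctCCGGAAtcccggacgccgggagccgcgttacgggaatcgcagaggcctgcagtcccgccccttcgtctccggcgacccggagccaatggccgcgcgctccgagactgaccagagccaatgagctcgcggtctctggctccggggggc
Il2ra, chr2:11642542-11642791, plus strand: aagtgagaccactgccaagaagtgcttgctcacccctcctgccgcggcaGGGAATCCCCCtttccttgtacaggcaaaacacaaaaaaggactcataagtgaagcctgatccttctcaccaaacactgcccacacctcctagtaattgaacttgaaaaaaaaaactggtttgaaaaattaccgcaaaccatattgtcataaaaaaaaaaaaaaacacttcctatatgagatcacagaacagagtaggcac
The CCGGAA of Il2rg ended 12 bases before the start, and those of Il6st ended 213 and 142 bases before it. Windows were found for 8 of the 9 genes, with 2 for Il15ra, and Il2rb had no entry. CCGGAA was found in 3 of the 9 windows of these genes, 1 each of Il2rg, Il6st and Il15ra, against 12.0% of all 32851 windows of this length. In Il2ra the NF-kB consensus matched in 2 overlapping positions, ending 192 and 191 bases before the start, and 3.9% of all windows held it. The STAT motif TTCNNNGAA was found in Il7r, ending 134 bases before the start, and in 7.02% of all windows. A match describes these letters and does not show that a factor binds.

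The cells carried the CD8 transcript their label implies. Cd8a, which encodes CD8 alpha, was at 45657.9 to 50265.2 normalized read counts in Het and 40591 to 46876.7 in WT libraries. Brca1 was at 126.7 to 174.5 in Het and 148.6 to 208.1 in WT libraries (log2 difference -0.25, SE 0.20, limma adjusted p = 0.742), and since the labels do not say which part of the gene is altered, this total checks no label. The deposited values share 1 distribution over the libraries, so totals (27488636.8 to 27489670) carry no depth. Genes above 0 numbered 13863 to 14656 in Het and 15358 to 15569 in WT libraries. Transcripts of other cells and tissues differed between libraries, and their values stand beside the genes they move with. In these bulk samples, fewer cells of a type and less RNA per cell cannot be told apart.

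Per length, the shared gamma chain was the most abundant receptor transcript and Il2ra the least. On the scale of normalized read count per kilobase of exon, Il2rg averaged 16271 ± 1908 in Het and 16166 ± 2308 in WT libraries (SD, n = 4 each). Il7r followed at 6981 ± 1754 in Het and 7294 ± 676 in WT libraries, and Il21r at 4032 ± 247 in Het and 4004 ± 238 in WT libraries. The ranges of these 3 genes over the 8 libraries did not overlap. Below them, Il2rb was at 1685 ± 249 per kilobase in Het and 1900 ± 213 in WT libraries, and Il4ra at 1574 ± 71.6 in Het and 1493 ± 81.5 in WT, so that the ranges of this neighbouring pair overlapped. Il6st, at 1009 ± 93.4 in Het and 969 ± 69.04 in WT libraries, likewise overlapped with Il6ra, at 778 ± 89.5 in Het and 799.8 ± 67.1 in WT. Il15ra, at 132 ± 29.5 per kilobase in Het and 115 ± 15.4 in WT, and Il2ra, at 20.7 ± 9.88 in Het and 15.5 ± 8.87 in WT, stood apart from the others and from each other. The order was the same when each gene was divided by its longest transcript. Lengths are those of GENCODE M21 protein-coding transcripts and may differ from the annotation used by the authors.

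**Figure D1:**
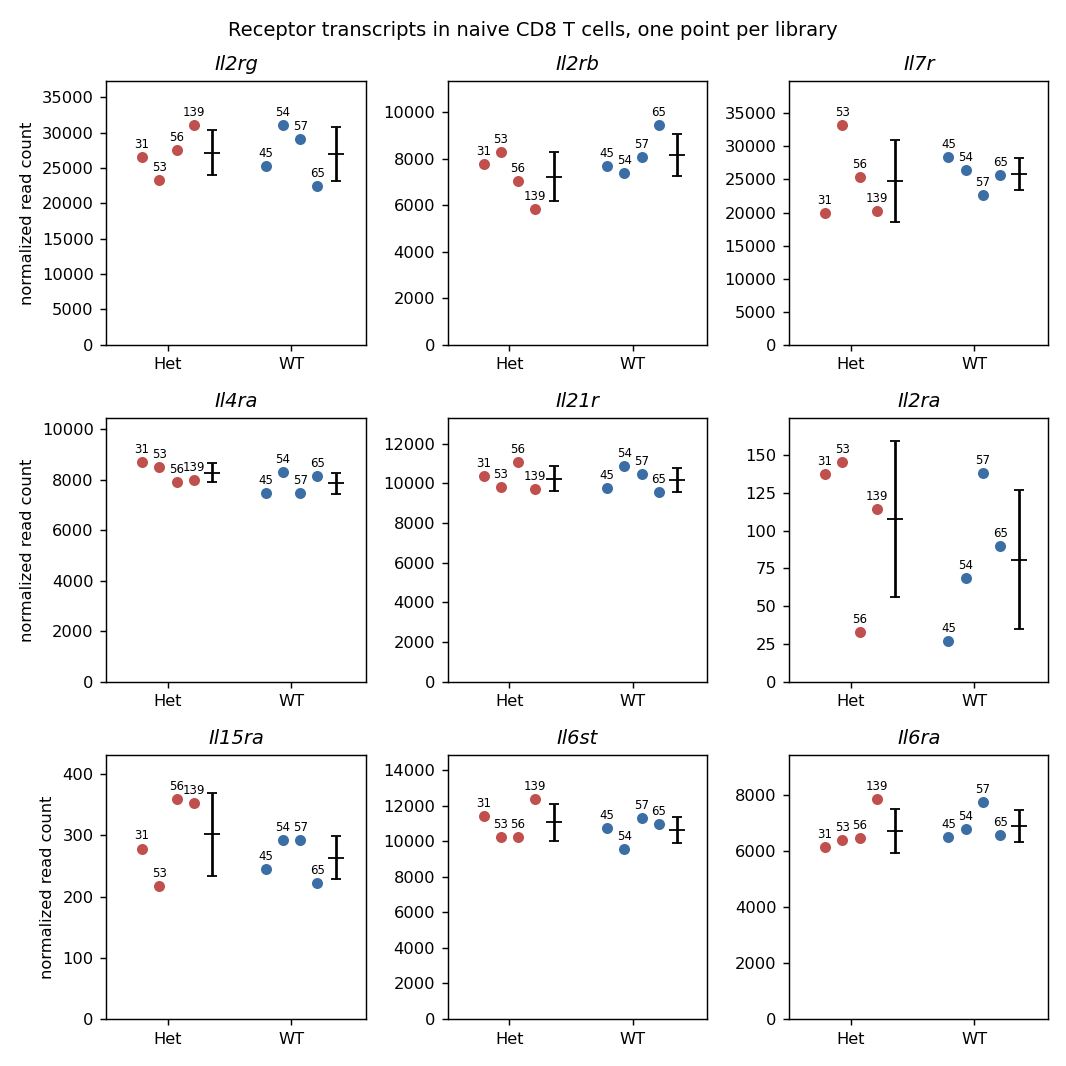
Normalized read count (vertical axes, linear, from 0) of the 9 receptor genes in each library, with Het in red on the left and WT in blue on the right, numbers giving the library and black bars the mean ± SD of 4 libraries. The genotypes overlap in every panel, and Il2ra, at 27.2 to 145.4 over the 8 libraries, has the widest spread for its level.

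Il2rg encodes the gamma chain itself, the signalling partner shared by the receptors for all gamma chain cytokines. Its normalized read count was 26629.4, 23362.4, 27595.8 and 31104.1 in Het 31, 53, 56 and 139, and 25354.7, 31104.1, 29081.9 and 22450.9 in WT 45, 54, 57 and 65. The highest value was shared by Het 139 and WT 54, and each genotype held both high and low libraries. The log2 difference was 0.01 (SE 0.13, 95% interval -0.28 to 0.30, exact permutation p = 1, limma adjusted p = 0.979). This interval runs from 0.825-fold to 1.23-fold. Il2rg lies on the X chromosome, and Xist, the RNA that marks an inactive X, was at 12056.2 to 25721.8 in Het and 15290.4 to 24842.8 in WT libraries. The summed Y-linked genes were at 0.9 to 3.8 in Het and 0.6 to 72.6 in WT libraries, with WT 45 and 54 high. With the Y-linked list as a covariate Il2rg again did not pass the limma threshold.

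Il2rb, the beta chain for interleukins 2 and 15, had the smallest limma p of the 9, while the smallest exact permutation p, 0.2, was that of Il4ra. Normalized read counts were 7744.5, 8290.9, 7041 and 5817.1 in Het 31, 53, 56 and 139, and 7680.1, 7371.8, 8083.7 and 9442.6 in WT 45, 54, 57 and 65. Het 139 was the lowest and WT 65 the highest library, while the other 6 lay between 7041 and 8290.9. Means were 7223 ± 1068 in Het and 8145 ± 913 in WT (SD, n = 4 each), with a log2 difference of -0.18 (SE 0.12, 95% interval -0.45 to 0.09, exact permutation p = 0.286, limma adjusted p = 0.708). Without Het 139 the log2 difference was -0.08, and without WT 65 it was -0.11. Leaving out other libraries also made it larger, up to -0.25 without Het 53.

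Markers of the cells in which Il2rb is known to be most abundant were higher in some Het libraries than in WT libraries. The mean log2 level of 17 memory CD8 genes was 8.08 to 9.20 in Het and 7.83 to 8.57 in WT libraries, with 14 of 17 tested genes higher in Het and none past the limma threshold. That of 13 NK cell genes was 6.01 to 7.94 in Het and 5.36 to 6.92 in WT libraries, with 11 of 12 tested genes higher, none past the threshold, and Klra4 at 0 in every library. Het 31, the highest library in both lists, had an Il2rb value between those of the other Het libraries. With the NK cell or the memory CD8 list as a covariate, the log2 difference of Il2rb was -0.29 or -0.24 (limma adjusted p = 0.891 and 0.9995).

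Il7r, the interleukin 7 receptor, had the widest range among the abundant members. Its normalized read count was 19996.3, 33254.2, 25354.7 and 20240.9 in Het 31, 53, 56 and 139, and 28476.2, 26390.8, 22690.1 and 25721.8 in WT 45, 54, 57 and 65. The highest and the lowest library were both Het, and the WT libraries lay between them. Means were 24712 ± 6208 in Het and 25820 ± 2394 in WT (SD, n = 4 each), that is, a coefficient of variation of 25.1% in Het and 9.27% in WT. The log2 difference was -0.09 (SE 0.16, 95% interval -0.45 to 0.27, exact permutation p = 0.657, limma adjusted p = 0.881).

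Il4ra and Il21r, the specific chains for interleukins 4 and 21, were the steadiest members. Il4ra was at 8692.2, 8483.1, 7910.8 and 8001.6 in Het 31, 53, 56 and 139, and at 7474.2, 8290.9, 7487.5 and 8139.6 in WT 45, 54, 57 and 65. Het 31 and 53 lay above every WT library, and Het 56 and 139 within the WT range. Its log2 difference was 0.08 (SE 0.08, 95% interval -0.10 to 0.25, exact permutation p = 0.2, limma adjusted p = 0.79). The mean log2 level of 17 B cell genes was 11.25, 10.19, 8.94 and 9.665 in Het 31, 53, 56 and 139. In WT 45, 54, 57 and 65 it was 8.84, 10.11, 9.46 and 9.83. Het 31 and 53 were thus highest and WT 45 lowest in both Il4ra and this list. With the list as a covariate the log2 difference of Il4ra was 0.04 (limma adjusted p = 0.967), and the part of B cells was not tested further. Il21r was at 10395.2, 9808.2, 11077.6 and 9718.5 in Het 31, 53, 56 and 139, and at 9762.1, 10881.4, 10475.1 and 9590.6 in WT 45, 54, 57 and 65. Its genotypes lay on almost the same range, with a log2 difference of 0.01 (SE 0.08, 95% interval -0.18 to 0.20, exact permutation p = 0.8, limma adjusted p = 0.976). The SD within genotypes was 0.07 log2 units for Il4ra and 0.09 for Il21r, and only 2.71% and 5.27% of tested genes had a smaller one. The upper ends of their intervals were 1.19-fold for Il4ra and 1.15-fold for Il21r.

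Il2ra, the high affinity chain for interleukin 2 that is induced on activation and constitutive on regulatory T cells, was low and varied most. Counts on this scale were 137.8, 145.4, 33.1 and 114.6 in Het 31, 53, 56 and 139, and 27.2, 68.4, 138.2 and 89.9 in WT 45, 54, 57 and 65. Het 56 and WT 45 were the lowest, and 3 Het libraries and WT 57 were above 100. Means were 108 ± 51.5 in Het and 80.9 ± 46.2 in WT (SD, n = 4 each), and the log2 difference, 0.42 with an SE of 0.56, had a 95% interval of -0.82 to 1.66 (exact permutation p = 0.514, limma adjusted p = 0.834). This interval runs from 0.568-fold to 3.17-fold, so that of the 9 genes Il2ra was measured with the least precision.

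The libraries lowest in Il2ra were low in several marker lists of other cells and high in a few. Mean log2 levels of the CD4 and regulatory T list (10 genes) were 8.70, 8.67, 8.29 and 8.55 in Het 31, 53, 56 and 139, and 8.14, 8.19, 8.52 and 8.69 in WT 45, 54, 57 and 65. Het 56 was the lowest Het library and WT 45 the lowest WT library in this list, as in Il2ra. The B cell list (17 genes) was at 8.94 in Het 56 and 8.84 in WT 45, against 9.46 to 11.25 in the other 6 libraries. Het 56 and WT 45 were also below the other 6 in the myeloid list (6.38 and 6.51) and the NK cell list (6.01 and 5.36). The same held for the memory CD8 list (8.08 and 7.83) and the platelet list (4.64 and 4.97). Some margins were small. WT 57, among the highest libraries in Il2ra, was at 6.04 in the NK cell list, and WT 65 was at 5.005 in the platelet list. In the epidermis list, by contrast, WT 45 was the highest of the 8 libraries at 9.15, and Het 56 the highest Het library at 5.99. The plasma cell list was at 7.82 in Het 56 and 8.06 in WT 45, the highest WT value. Foxp3, which defines regulatory T cells, was at 132.4 to 179.6 in Het and 86.1 to 221.4 in WT libraries, highest in WT 57. The part of these cells in Il2ra was not tested beyond lists as covariates. With the CD4 and regulatory T list the log2 difference was -0.18, and with the B cell list 0.03 (limma adjusted p = 0.991 and 0.997). With the NK cell or the memory CD8 list it was -0.44 or -0.58 (limma adjusted p = 0.9988 and 0.9995). Without Het 56 and WT 45, chosen after the values were seen, Il2ra differed by 0.47 log2 units with an SE of 0.30 (limma adjusted p = 0.587).

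Il15ra, which presents interleukin 15 to cells that carry Il2rb and the gamma chain, was the second lowest member. Libraries gave 278.6, 216.6, 359.2 and 352.7 in Het 31, 53, 56 and 139, and 245.7, 293.1, 293.2 and 222.9 in WT 45, 54, 57 and 65. Het 56 and 139 lay above every WT library, and Het 53 below every one. The log2 difference was 0.17 (SE 0.20, 95% interval -0.26 to 0.61, exact permutation p = 0.4, limma adjusted p = 0.806).

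For both chains of the interleukin 6 receptor, the specific chain and gp130, the genotypes differed by less than the spread between libraries. Il6ra was at 6146, 6408.4, 6473.6 and 7862.7 in Het 31, 53, 56 and 139, and at 6518.1, 6802.5, 7761.4 and 6566.1 in WT 45, 54, 57 and 65. In each genotype 1 library, Het 139 and WT 57, stood above the other 3. The log2 difference was -0.04 (SE 0.10, 95% interval -0.27 to 0.18, exact permutation p = 0.514, limma adjusted p = 0.913). Il6st was at 11409.6, 10260.9, 10239 and 12370.1 in Het 31, 53, 56 and 139, and at 10737.9, 9552.9, 11290.4 and 10967.4 in WT 45, 54, 57 and 65. Here Het 139 was the highest and WT 54 the lowest library, with a log2 difference of 0.06 (SE 0.10, 95% interval -0.16 to 0.27, exact permutation p = 0.543, limma adjusted p = 0.874). The ratio of Il6ra to Il6st values within a library was 0.608 ± 0.0463 in Het and 0.651 ± 0.0569 in WT (SD, n = 4 each).

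**Figure D2:**
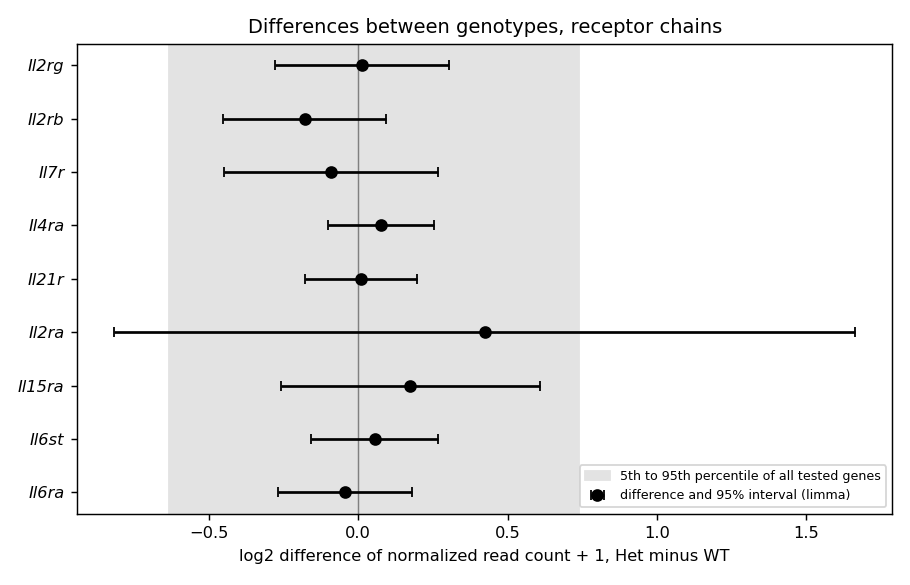
Log2 difference of each receptor gene, Het minus WT (horizontal axis), with its 95% interval from limma over 4 Het and 4 WT libraries, and in grey the range from the 5th to the 95th percentile of all 12048 tested genes (-0.635 to 0.738). Every interval spans 0, and only that of Il2ra, -0.82 to 1.66, reaches beyond the grey range.

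The 9 genes did not vary as a block across the libraries. Het 139 was highest in Il6ra and Il6st, shared the highest Il2rg value with WT 54, and was lowest in Il2rb. Het 53 was highest in Il7r and Il2ra and lowest in Il15ra. Of the 36 pairs of members, correlated over the 8 libraries on the log2 scale, none passed after Benjamini-Hochberg adjustment. At an unadjusted exact permutation p under 0.05 for Pearson r there were 4. The pair with the smallest p was Il15ra and Il2rb (Pearson r = -0.817, exact permutation p = 0.00737, adjusted 0.212, Spearman rho = -0.786, exact permutation p = 0.0279, adjusted 0.389), and r was -0.706 without Het 53 and WT 65. Il15ra and Il2rg gave r = 0.828 (exact permutation p = 0.0136, adjusted 0.212, Spearman rho = 0.79, exact permutation p = 0.0254, adjusted 0.389), which dropped to 0.566 without the same libraries. Il2rg and Il2rb gave r = -0.772 (exact permutation p = 0.0177, adjusted 0.212), and -0.526 without them. For Il7r and Il6st r was -0.708 (exact permutation p = 0.0481, adjusted 0.433). Correlations within a genotype would rest on 4 libraries and are not given.

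**Figure D3:**
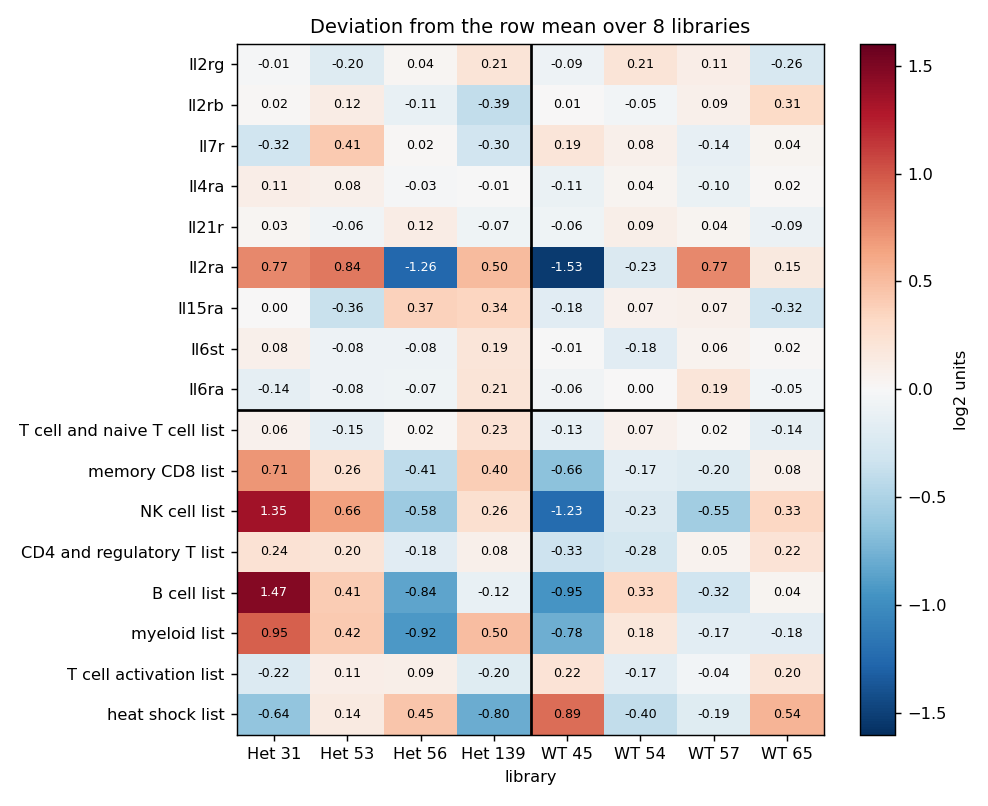
Deviation of each receptor gene (top 9 rows) and of the mean level of 8 marker lists (bottom rows) from its own mean over the 8 libraries, in log2 units, with Het libraries left and WT libraries right of the vertical line. Il2ra ranges from -1.53 in WT 45 to 0.84 in Het 53, while Il4ra and Il21r stay within 0.12 of their means.

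Genes closest to each member in their pattern over the 8 libraries were found by the root mean square difference of centred log2 values, among named genes with a mean of at least 100. Closest to Il2rg was Cd3e, a signalling chain of the T cell receptor complex, at a difference of 0.0327 log2 units, where the median over all candidates was 0.244. Cd3e was at 12847.2, 11429.4, 13899.2 and 15386.2 in Het 31, 53, 56 and 139, and at 12437.8, 16132.1, 14832.1 and 11037.3 in WT 45, 54, 57 and 65, with the same 2 highest libraries as Il2rg. Tusc2 and Rhog came next. Closest to Il7r was Pde3b, a phosphodiesterase that breaks down cyclic AMP, at 0.0705 against a median of 0.296, and like Il7r it was highest in Het 53, at 13586.8. Npat and Sepsecs followed. Il21r was closest to Il16, a cytokine of T cells (0.0444), Il4ra to the splicing factor Srsf1 (0.0277), Il6ra to Lss (0.0432), Il6st to Zkscan17 (0.0489), Il15ra to Mrps2 (0.0726) and Il2rb to BC017643 (0.055). The nearest to Il2ra was Pik3ap1, an adaptor of B cell receptor signalling, at 0.484 against a median of 0.896, followed by Ndufb2 and the kinase Lyn. Such a distance grows with the spread of the member itself. The root mean square deviation from its own mean was 0.877 for Il2ra and 0.0751 for Il21r, so distances of different members are not compared. These distances are a description over 8 libraries.

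Among the kinases and transcription factors that the receptors use, no gene passed the test either. Of 11 Janus kinases and STAT factors, all tested, 6 were higher and 5 lower in Het and 0 passed limma, at either the adjusted or the unadjusted threshold, with a median log2 difference of 0.01. Jak3, the kinase bound to the gamma chain, was at 8491 ± 767 in Het and 9163 ± 1477 in WT libraries (limma adjusted p = 0.822). Stat5a was at 2607 ± 233 in Het and 2773 ± 163 in WT (SD, n = 4 each, limma adjusted p = 0.782). Of 15 inhibitors, 9 were higher and 6 lower with 0 past limma at either threshold (median 0.05). The phosphatase Ptpn6 was at 15261 ± 1708 in Het and 17578 ± 1787 in WT (limma adjusted p = 0.653). Genes that shed or degrade the receptors (8 genes, 2 higher, median -0.08) and transcription factors that control receptor genes (14 tested of 15 found, 7 higher and 7 lower, median 0.00) had 0 past limma at either threshold. Tcfe3, the smallest p of that list, was at 1229 ± 98.2 in Het and 1427 ± 128 in WT (limma adjusted p = 0.636). Runx3, a factor of the CD8 lineage, was at 4902 ± 1717 in Het and 6415 ± 1129 in WT (limma adjusted p = 0.646). Foxo1, an activator of Il7r, was at 12203 ± 860 in Het and 10958 ± 791 in WT (limma adjusted p = 0.663).

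Targets of the pathways also had no member past the adjusted threshold. Among 16 targets of gamma chain cytokines 9 were higher and 7 lower in Het (median 0.02), and 1 passed the unadjusted threshold, the protease Gzmb, at 432 ± 168 in Het and 225 ± 78.9 in WT (limma adjusted p = 0.528). Of all tested genes, 3.79% passed that threshold higher in Het. Gzmb was highest in Het 31 and lowest in Het 56 among Het libraries, as was the NK cell list (7.94 and 6.01). Among WT libraries both were highest in WT 65 and lowest in WT 45 (list at 6.92 and 5.36). The part of NK cells in Gzmb was not tested. Among 9 tested targets of interleukin 6 and STAT3, 7 were higher (median 0.06), and 1 passed unadjusted, against the same 3.79%. This was Prdm1, a factor of effector cells, at 146 ± 25.8 in Het and 103 ± 6.07 in WT (limma adjusted p = 0.587). Socs3, the feedback inhibitor that acts on gp130, was at 9741 ± 2659 in Het and 8253 ± 1759 in WT (limma adjusted p = 0.773). Of 10 adaptors 8 were lower (median -0.07), and the mean log2 level of the list was 9.42 to 9.59 in Het and 9.69 to 9.88 in WT libraries, with no overlap. Irs1, an insulin receptor substrate, was at 4.8 to 9.1 in Het and 10.4 to 22.5 in WT libraries (limma adjusted p = 0.653). It also had no overlap, as did 2.86% of all tested genes with Het below WT. Gab1 passed the unadjusted threshold, at 6.75 ± 4.87 in Het and 30.6 ± 15.4 in WT (SD, n = 4 each, limma adjusted p = 0.373). These 2 genes, both at low values, had the largest falls of the list, with log2 differences of -2.07 for Gab1 and -0.95 for Irs1. Irs2 differed by -0.42 and Gab2 by 0.63, and the remaining adaptors by -0.18 (Sos1) to 0.12 (Grb2). The list level weighs all its genes alike, so its lack of overlap does not describe the adaptors as a group.

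Of 17 genes for the cytokines themselves 5 passed the filter on low values, and the other 12 had at most 14.6 normalized read counts in any library. Il2 was above 0 only in Het 53 (2.1) and WT 57 (0.3), Il7 reached 3.2 in Het and 1.9 in WT libraries, and Il9 was listed at 0 throughout. Clcf1, a ligand of the gp130 family, was at 2358 ± 488 in Het and 3034 ± 269 in WT (log2 difference -0.38, limma adjusted p = 0.477), and 4 of the 5 tested ligands were higher in Het (median 0.50). Of these 4, Ebi3, Lif and Il15 had means of 17.3, 15.3 and 13.9, just above the filter of 10, with SEs of 0.48, 0.63 and 0.65. The fourth, Osm, differed by 0.15. Osm, which encodes oncostatin M, was at 543 ± 71.3 in Het and 487 ± 46.8 in WT (SD, n = 4 each, limma adjusted p = 0.765). None of the 5 passed the adjusted threshold and only Clcf1 the unadjusted one.

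**Figure D4:**
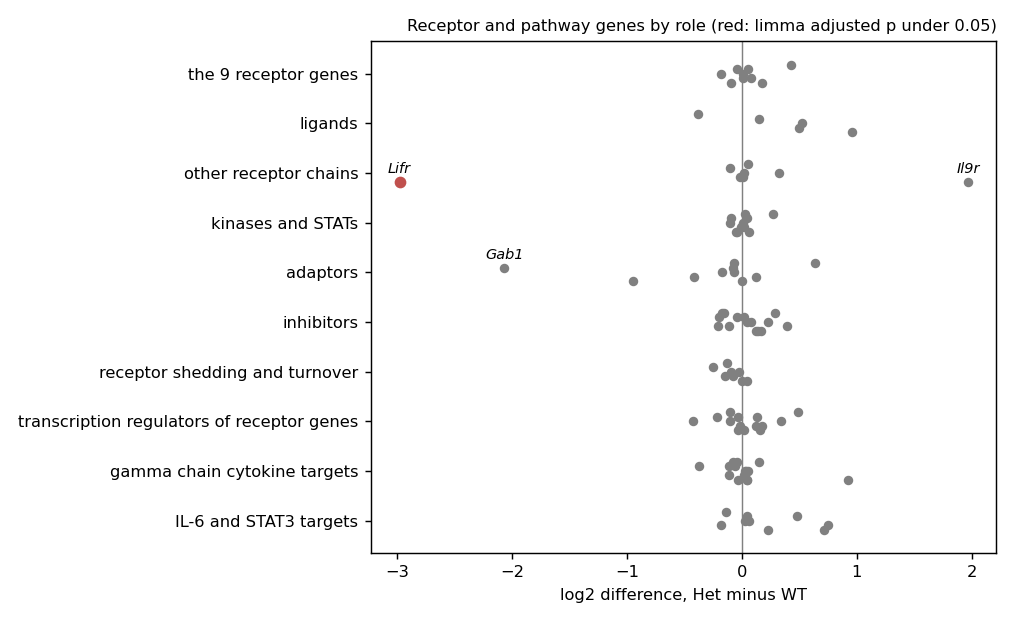
Log2 difference, Het minus WT (horizontal axis), of the 9 receptor genes and of tested pathway genes grouped by role, 1 point per gene with vertical offsets for legibility only. Lifr, at -2.98, is the only red point, the mark of a limma adjusted p under 0.05, and Il9r at 1.97 and Gab1 at -2.07 are the other points farthest from 0.

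Among 12 further receptor chains of both families, 8 of them tested, 5 were higher and 3 lower in Het (median 0.02), and Lifr alone passed the limma threshold. Lifr, which pairs with gp130 for leukaemia inhibitory factor, was at 13.2, 22.4, 31.7 and 9.1 in Het 31, 53, 56 and 139, and at 86.1, 211.8, 99.3 and 226.9 in WT 45, 54, 57 and 65. Every Het library was below every WT library. In log2 units it fell by 2.98, with an SE of 0.46 (limma adjusted p = 0.0218). The exact permutation p was 0.0286, which is the smallest possible with these numbers. Without Het 31, 53 or 139, or WT 54, 57 or 65, the limma adjusted p was 0.0662, 0.054, 0.0554, 0.11, 0.0769 and 0.0986, above the threshold each time, while over all 8 such fits the log2 difference stayed between -3.26 and -2.70.

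Transcripts of nerve were lower in the Het libraries as well. The nerve list had a mean log2 level of 2.81 to 5.49 in Het and 7.77 to 8.89 in WT libraries. Of its 10 genes 9 were lower and 7 past the limma threshold, against 0.515% of all tested genes. The list was chosen with earlier results in view, so its count is a description only. The stroma and endothelium list was at 4.92 to 5.69 in Het and 6.03 to 7.45 in WT libraries, with 8 of 10 tested genes lower and 1 past the threshold, Dcn, at 24.8 ± 20.5 in Het and 469.6 ± 166 in WT. With the nerve list as a covariate the log2 difference of Lifr was -0.47 (limma adjusted p = 0.991), a fit in which the covariate itself separates the genotypes, so genotype and nerve transcripts cannot be told apart for Lifr. With the NK cell or memory CD8 list as a covariate Lifr differed by -3.06 or -2.82 (limma adjusted p = 0.128 and 0.162). The call also ended with a filter at a mean of 50 (limma adjusted p = 0.0622) and with the heat shock, Y-linked or CD4 and regulatory T list or the number of genes above 0 as a covariate (0.0582, 0.124, 0.0637 and 0.461), at log2 differences of -3.00 to -2.62. It ended as well without WT 45 and WT 54 together (-3.05, limma adjusted p = 0.18) and without Het 139 and Het 31 together (-2.38, limma adjusted p = 0.178).

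Il9r, the specific chain for interleukin 9 and so a further partner of the gamma chain, is named after its values were seen. It was at 114.2, 79.6, 27.4 and 63.6 in Het 31, 53, 56 and 139, and at 13.5, 9.9, 13.1 and 31.6 in WT 45, 54, 57 and 65. The genotypes overlapped through Het 56 and WT 65. The log2 difference was 1.97 (SE 0.51, 95% interval 0.85 to 3.09), which did not pass the adjustment (limma adjusted p = 0.199, exact permutation p = 0.0571). Within Het its order, with Het 31 highest and Het 56 lowest, was that of the B cell list at 11.25 and 8.94 and of the NK cell list at 7.94 and 6.01. Among WT libraries the order differed, since Il9r was lowest in WT 54, where the B cell list was highest at 10.11, and WT 45, the lowest in both lists, had the second highest WT value of Il9r. WT 65, however, was the highest WT library in Il9r, in the NK cell list (6.92) and in the memory CD8 list (8.57). With the B cell, NK cell or memory CD8 list as a covariate the log2 difference was 1.67, 1.23 and 1.20 (limma adjusted p = 0.287, 0.732 and 0.832).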

How the data were processed

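The table deposited by the authors holds 1 linear signal value for each gene and library, a normalized read count. The submitters' processing notes name CASAVA, TopHat2, HTSeq, DESeq and the build mm9, with neither version nor role, and libraries were stranded and made from mRNA, per the labels' protocols. How values were normalized, and whether counting used strand, is not given in the sources used here. Of 9513 ranks whose mean was 100 or more, 100% had sorted values that stayed within 2% of the rank's mean, so the libraries had been brought to 1 distribution, and read depth is unknown. No count model was used.

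Values were tested as log2(value + 1) with limma 3.58.1 in R 4.3.3, with a variance trend, 2-sided, on 12048 genes with a mean of at least 10. A fold change on this scale understates the change of low genes. For single values the 70 ways of assigning 4 of 8 libraries gave an exact permutation test, 2-sided, that cannot go below 0.0286. The fit was also run on simulated data with noise drawn independently for each gene, which does not test it where genes vary together. Members, lists and tests were chosen with earlier results of these data known. Named were the 9 receptors, of each pathway list the members past the threshold or those with the smallest p, marker lists by level, and the genes of closest pattern. Il9r, Socs3, Foxp3, Cd8a, Il2, Il7, Il9, Il21, Il6, Il27ra, Crlf2 and Klra4 were chosen after their values were seen. Alternatives were pseudocount, filter, scaling, weights, trend, robust fit, covariates and left-out libraries. Promoter windows are from RefSeq on GRCm38.p6, and no coordinate was carried between builds. Some genes that the naming rule picks are not reported here.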

Additional observations from a re-analysis of the deposited data

Results flagged for a closer look

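In groups of 4 libraries, a library counted as far from the others when its gap to the nearest one exceeded Dixon's critical share of the whole range. Chance gives that in about 1 of 20 groups, and 2 of 92 groups (2.17%) of receptor genes, named pathway genes and lists met it. None of the 9 receptor genes did. Il9r was at 31.6 in WT 65, against 9.9 to 13.5 in the other WT libraries. In WT 45 the mean log2 value over nerve genes was 7.77, against 8.74 to 8.89 in the other WT libraries.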

How the results depend on the processing

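Over 29 alternatives, 261 fits of the 9 receptor genes gave 0 past the limma adjusted threshold and 0 at an unadjusted p under 0.05, with a lowest adjusted p of 0.358, and 44 changed sign around 0. No paired analysis was possible because the genotypes share no library number. Read depth is unknown, so counting error cannot be separated from the other spread between libraries. The count of genes changed, 62 of 12048, did depend on the processing, with 11 to 91 when 1 library was left out (91 without Het 56, 27 without Het 31, 21 without Het 53, 30 without Het 139, 16 without WT 54, 11 without WT 57 and 16 without WT 65); the cause was not tested. Testing every gene with a value above 0 gave 123, and a mean of at least 50 gave 14. With the B cell list as a covariate it was 39.

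Signs that changed are given as log2 differences, with the count of genes changed first. The NK cell list as a covariate gave 9 genes and Il2ra -0.44. The memory CD8 list gave 8, Il7r 0.045, Il2ra -0.58 and Il6st -0.0033. The Y-linked list gave 9, Il2ra -0.23 and Il6st -0.0023. Genes above 0, which separate the genotypes without overlap, gave 0 genes, Il7r 0.27, Il21r -0.0072, Il15ra -0.68, Il2rg -0.37, Il2rb 0.35 and Il6st -0.13. The heat shock list gave 30, Il7r 0.031, Il21r -0.00081, Il2ra -0.024 and Il2rg -0.080. Omitting WT 45 and WT 54 gave 3, Il7r 0.00067, Il2ra -0.25 and Il6st -0.012. Omitting Het 139 and Het 31 gave 3, Il7r 0.17, Il2rg -0.077 and Il6st -0.051. Scaling to T cell genes gave Il4ra -0.0082, Il21r -0.074, Il2rg -0.071 and Il6st -0.029, and array weights gave Il21r -0.022 and Il2rg -0.060. Chosen after seeing the data, omitting Het 56 and WT 45 gave 121, Il21r -0.047 and Il2rg -0.023, the CD4 and regulatory T list gave 30 and Il2ra -0.18, and the nerve list gave 0, Il4ra -0.024, Il6ra 0.033, Il2ra -1.66, Il6st -0.19 and Il9r -0.79.

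With each library left out in turn, log2 differences ranged from -0.24 to 0.00064 for Il7r, 0.05 to 0.10 for Il4ra, -0.028 to 0.043 for Il21r, -0.12 to 0.014 for Il6ra, -0.018 to 0.91 for Il2ra, 0.081 to 0.32 for Il15ra, -0.072 to 0.085 for Il2rg, -0.25 to -0.079 for Il2rb and 0.00090 to 0.092 for Il6st.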

Other observations

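Il21, the ligand of the Il21r receptor, was above 9 in 3 Het libraries and near 0 in WT libraries, though its mean was under the filter and it was not fitted. Its normalized read count was 14.6, 10.4, 9.9 and 0 in Het 31, 53, 56 and 139, and 0, 0, 0.7 and 1 in WT 45, 54, 57 and 65 (exact permutation p = 0.143). The lowest value above 0 was 0.9 to 1.9 in Het and 0.2 to 0.3 in WT libraries. Il6 was at 0 to 4.1 in Het and 0 to 1 in WT libraries.

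Il27ra, the specific chain for interleukin 27 and a further partner of gp130, had normalized read counts of 16866.7, 14884.2, 12351.3 and 14426.5 in Het 31, 53, 56 and 139, and 12672.7, 14171.4, 13997.4 and 15454.4 in WT 45, 54, 57 and 65. Het 31 was the highest and Het 56 the lowest library, so that the WT libraries lay within the Het range, with a log2 difference of 0.05 (limma adjusted p = 0.904). Crlf2, the receptor chain for thymic stromal lymphopoietin that pairs with Il7r, was at 1069.2, 859.8, 792.9 and 1047.6 in Het 31, 53, 56 and 139, and at 901.8, 927.8, 1141.3 and 771.5 in WT 45, 54, 57 and 65, with a log2 difference of 0.01.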
